A study of Mus musculus with 6 samples.

Results

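The 10 genes described here place fucose on glycans or supply the activated sugar for it, and they were taken by symbol from the 32285 genes of 6 single-cell RNA-seq libraries. They were the fucosyltransferase genes Fut4, Fut7, Fut8, Fut9, Fut10 and Fut11, the protein O-fucosyltransferase genes Pofut1 and Pofut2, the GDP-mannose dehydratase gene Gmds and the GDP-fucose transporter gene Slc35c1. Their UMIs (counted mRNA molecules) were summed per library and per cell class. Each symbol matched 1 row. Fut9 had 4 UMIs in all 51633 cells kept and was too rare to describe further, so 9 of the 10 genes entered the tests.

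Each library came from 1 mouse. There were a control mouse and mice given 2FF, 2FF plus anti-PD-L1, the antibody anti-PD-L1 alone, 2DG or, last, 2DG plus anti-PD-L1. According to the methods, young adult female C57BL/6 mice carried orthotopic tumors of KPCA, a mouse ovarian cancer line that can repair DNA by homologous recombination, and control mice received solvent and rat IgG. 2FF (2-fluorofucose) is a fucose analogue that blocks fucosylation. The labels give it as 2F-Peracetyl-Fucose, while the paper names 2-fluoro-L-fucose. The tumor cells of the 2FF arm were already exposed to it before injection, so tumor cells and host were both treated. 2DG (2-deoxyglucose) is a glucose analogue that slows glycolysis and disturbs N-glycan assembly. Anti-PD-L1 is an antibody against a checkpoint ligand. The labels, however, give the tissue of every sample as lymph node, and aged mice are mentioned in the design text. Keratin-positive cells were found in every library, 53 in all. With 1 mouse per treatment, a treatment and its mouse and library cannot be told apart, and the ratios for 2DG and for 2FF were taken against the same control and the same anti-PD-L1 library.

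Fucose is attached by transferases that use GDP-fucose. Most of this sugar nucleotide is made from GDP-mannose, where Gmds catalyses the first committed step and Tsta3 completes it. A salvage route through Fcsk and Fpgt re-uses free fucose, and Slc35c1 carries GDP-fucose into the Golgi. Fut8 is the enzyme for the core fucose of N-glycans, which is known to alter the function of antibodies and of T cell receptors. Fut4, Fut7 and Fut9 build Lewis-type structures, and Fut7 is best known for the selectin ligands by which leukocytes roll on endothelium. Pofut1 and Pofut2 work in the endoplasmic reticulum, on the epidermal growth factor-like repeats of Notch receptors and on thrombospondin repeats, respectively. Fut10 and Fut11 are less well characterized members of the family.

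On GRCm38, Gmds spans 519.162 kb of the minus strand at chr13:31819579-32338740 and Fut8 spans 238.214 kb of the plus strand at chr12:77238125-77476338. Fut4 lies at chr9:14748320-14752393, Fut7 at chr2:25423267-25426374, Slc35c1 at chr2:92452764-92460538, Fut10 at chr8:31187331-31261738, Fut11 at chr14:20694968-20701016, Pofut1 at chr2:153241533-153270247 and Pofut2 at chr10:77259218-77269575. Fut11 lies within the antisense gene 6230400D17Rik, which had 1277 UMIs of its own. The promoters of Gmds, Fut4 and Fut7 are shown because the results below on dendritic, myeloid and CD8 T-like cells turn on them. Each covers 250 bases before to 50 bases after the start site (RefSeq, GRCm38.p6, printed 5′ to 3′ on the gene's strand). They lie at chr13:32338495-32338794, chr9:14752073-14752372 and chr2:25422992-25423291. Capitals mark, on either strand, GGGCGG (a GC box), the ETS-type letters GGAAGT or the CCAAT box.
Gmds: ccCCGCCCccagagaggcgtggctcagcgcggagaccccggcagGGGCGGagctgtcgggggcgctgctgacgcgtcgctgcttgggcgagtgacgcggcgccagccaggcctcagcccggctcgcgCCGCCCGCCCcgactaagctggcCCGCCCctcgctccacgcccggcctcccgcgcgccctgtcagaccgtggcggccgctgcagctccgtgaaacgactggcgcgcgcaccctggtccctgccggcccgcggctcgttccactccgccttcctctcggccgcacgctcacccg
Fut4: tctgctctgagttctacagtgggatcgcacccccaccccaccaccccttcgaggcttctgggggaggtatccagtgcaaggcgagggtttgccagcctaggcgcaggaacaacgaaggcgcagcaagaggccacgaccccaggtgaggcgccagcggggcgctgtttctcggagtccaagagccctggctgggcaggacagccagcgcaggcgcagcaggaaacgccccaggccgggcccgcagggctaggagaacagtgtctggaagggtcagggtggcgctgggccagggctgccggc
Fut7: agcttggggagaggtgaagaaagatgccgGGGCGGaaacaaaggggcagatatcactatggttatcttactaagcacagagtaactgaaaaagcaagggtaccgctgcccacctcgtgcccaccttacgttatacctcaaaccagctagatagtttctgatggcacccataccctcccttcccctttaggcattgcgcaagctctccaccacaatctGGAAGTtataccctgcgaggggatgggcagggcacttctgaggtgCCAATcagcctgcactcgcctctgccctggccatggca
The Gmds window held GGGCGG 5 times and 45 CG dinucleotides, against a median of 7 CG dinucleotides over the 32851 promoters of the table. The Fut4 window held 18 CG dinucleotides and none of these motifs. The Fut7 window held 8 CG dinucleotides and each of the 3 motifs once. Of all promoters, 35.7% held GGGCGG, 23.8% GGAAGT and 37.4% CCAAT. The Pofut1 window also held GGGCGG 5 times and 45 CG dinucleotides. Promoters were found for 8 of the 10 genes, all but Fut9 and Fut10. The first of the Fut7 entries is shown.

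Between 7703 and 9222 cells per library had at least 250 genes and at most 5% mitochondrial UMIs, with medians of 6196 to 7732 UMIs per cell. Cells were assigned to classes by markers that include none of the 10 genes, and 21.1% of them passed no gate. The control library stood apart in its makeup. It held 3259 neutrophil-like cells against 255 to 486 in the others, and 121 CD8 T-like cells against 1153 to 2070. Any 2 libraries shared 16 to 34 barcodes. In sums over cells, fewer expressing cells and less RNA per cell cannot be told apart. Levels are given as CPM, the usual scaling of a gene's UMIs to the total of its class in a library, as the lowest, the median and the highest library. Levels of different genes are not compared with each other.

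The 10 classes tested had at least 20 cells in at least 3 libraries. Each class was set against the mean of the others, with library as a block and 1 mouse per library. The p-values therefore measure how class differences varied between 6 mice of different treatments, not how the mice differed. This spread was estimated from all classes together, over 56 sums with 41 residual degrees of freedom. NK-like cells had 5 libraries and plasmacytoid dendritic-like cells 3. Of 90 pairs of gene and class, 13 were higher and 5 lower (edgeR quasi-likelihood test, Benjamini-Hochberg adjusted p under 0.05 and a log2 difference of at least 1). That is 20% of the pairs, against 23.3% of all gene-class pairs tested, so these genes were not set apart from the transcriptome by how often they varied with class. Fut4 varied most often, being higher in 5 classes and lower in 1. Fut8, Pofut1 and Slc35c1 passed in none. On the scale of UMIs per cell there were 25 calls. The share of all gene-class pairs called on that scale is not given here, so this count does not set the members apart. Fut8 (-1.41), Pofut1 (-2.09) and Slc35c1 (-1.93) then passed as lower in neutrophil-like cells, Fut8 as lower in monocyte-like cells (-1.11) and Slc35c1 as higher in macrophage-like cells (1.06). On that scale the median of all genes in neutrophil-like cells was -1.42, against 0.09 in CPM.

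In CPM, Gmds, the entry point of GDP-fucose synthesis, fell into 3 tiers. Regulatory T-like cells had 163, 217 and 259 CPM in the lowest, median and highest library. CD8 T-like cells had 186, 212 and 241 CPM. CD4 T-like cells had 164, 190 and 212 CPM. B-like cells, NK-like cells and plasmacytoid dendritic-like cells lay in the same range, with medians of 178, 173 and 201 CPM, and the ranges of all neighbours in this tier overlapped. Macrophage-like cells had 87.1, 90.9 and 106 CPM and dendritic-like cells 67.5, 90.3 and 114 CPM. Every lymphocyte library lay above these, the lowest being a B-like sum at 132 CPM. The dendritic sums mix subsets far apart in Gmds, with mature cells at 5.16 to 12 CPM and type 1 cells at 148 to 174 CPM, as described below. Monocyte-like cells had 43.5, 49.8 and 60.1 CPM. Neutrophil-like cells had 22.9, 39.7 and 55.2 CPM, which overlapped the monocytes and lay below every other class tested. The fitted Gmds difference from the mean of the other classes was -1.37 ± 0.10 (SE) on the log2 scale in neutrophil-like cells (edgeR, adjusted p = 1.49e-17) and -1.10 ± 0.09 in monocyte-like cells (edgeR, adjusted p = 1.43e-16). In UMIs per cell the upper tiers ran together. Differences were then 0.37 in dendritic-like, 0.26 in NK-like, 0.18 in B-like and 0.05 in macrophage-like cells. The T cell classes lay at 0.55 to 0.89, and plasmacytoid dendritic-like cells passed as higher (1.26). Neutrophil-like (-2.88) and monocyte-like cells (-1.40) still passed as lower. Introns may have been counted, which adds UMIs to long genes. The 843 tested genes of at least 200 kb had median differences of 0.47 in neutrophil-like and 0.19 in monocyte-like cells, beside 0.09 and 0.19 over all genes. The part of intron counting in the Gmds values was not tested. Slc35c1, the transporter, had medians from 4.69 CPM in neutrophil-like to 11.2 CPM in macrophage-like cells. In CPM it passed in no class, and its values in all neighbouring classes overlapped.

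Of the 10 classes tested, Fut8, the core fucosyltransferase, was highest in CD4 T-like cells at 168, 177 and 183 CPM. CD8 T-like cells followed at 140, 150 and 176 CPM and NK-like cells at 123, 133 and 153 CPM. Fut8 in regulatory T-like cells was more variable, at 87.8, 127 and 175 CPM. Macrophage-like cells had 50.8, 56.5 and 60.7 CPM and monocyte-like cells 41.2, 49.2 and 55.5 CPM. Each step of this order overlapped the next, but no library of CD4, CD8 or NK-like cells came near those of the monocytes and macrophages. The fitted differences were below the size asked of a call, at -0.82 ± 0.10 in macrophage-like cells (edgeR, adjusted p = 1.52e-10) and -0.82 ± 0.10 in monocyte-like cells (edgeR, adjusted p = 1.40e-10). In the fit that also accepted sums of 5 cells, which adds plasma-like and tumor cells to the mean, Fut8 passed as lower in macrophage-like (-1.10, edgeR adjusted p = 2.27e-13) and monocyte-like cells (-1.11, edgeR adjusted p = 1.51e-13). Among the genes whose profile over the 56 class and library sums was most like that of Fut8 were Cntrl and Psip1, with Pearson r of 0.92 and 0.88. These points share libraries and mice.

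Fut4, which makes Lewis-type structures on myeloid cells, was a gene of the myeloid and dendritic classes. Dendritic-like cells had 8.39, 13.9 and 21.8 CPM. Monocyte-like cells had 3.43, 4.14 and 5.45 CPM, and macrophage-like cells 2.60, 3.56 and 4.10 CPM. The dendritic sums mix mature cells at 12 to 42.8 CPM of Fut4 with type 1 cells at 2.91 to 7.67 CPM. The type 1 cells overlapped the monocytes. Neutrophil-like cells were more scattered, at 0.576, 2.69 and 5.68 CPM. Plasmacytoid dendritic-like cells rested on 8 UMIs, at 4.78, 7.26 and 22.5 CPM in 3 libraries. No lymphocyte library exceeded 2.74 CPM. NK-like cells had no Fut4 UMI among 7123871, which allows up to 0.421 CPM (3 counts over the 5 libraries), and B-like cells had 2. Fut4 passed as higher in dendritic-like (edgeR, adjusted p = 2.67e-18), monocyte-like (adjusted p = 1.14e-11), macrophage-like (adjusted p = 1.03e-07), neutrophil-like (adjusted p = 6.27e-05) and plasmacytoid dendritic-like cells (adjusted p = 0.000512). It passed as lower in NK-like cells (edgeR, adjusted p = 3.83e-05). Because classes without a UMI enter the mean, the fitted fold changes of Fut4 depend on the prior count and are not given. On the scale of UMIs per cell the neutrophil call was lost (edgeR, adjusted p = 0.761). The plasmacytoid dendritic call was lost without the anti-PD-L1 library (edgeR, adjusted p = 0.124). The NK call was lost without the 2DG plus anti-PD-L1 library and with doublets removed (edgeR, adjusted p = 1 in both). The profiles most like that of Fut4 were those of Tbc1d8, Tmem63b and Ccdc88a, with Pearson r of 0.88, 0.87 and 0.85 over the same 56 sums.

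Fut7, the selectin-ligand enzyme, was a low gene of the T cell classes. CD8 T-like cells had 1.06, 2.96 and 4.35 CPM on 195 UMIs. CD4 T-like cells had 1.41, 2.79 and 4.14 CPM on 47 UMIs, and regulatory T-like cells 0, 3.86 and 7.77 CPM on 40. Fut7 passed as higher in CD8 (edgeR, adjusted p = 0.000100), CD4 (adjusted p = 0.00745) and regulatory T-like cells (adjusted p = 0.000125). The 3 T cell classes overlapped in full. Macrophage-like cells had 0.536, 1.28 and 1.84 CPM and monocyte-like cells 0.312, 0.792 and 1.77 CPM. NK-like cells had 5 Fut7 UMIs, B-like cells 2 and plasmacytoid dendritic-like cells 0 of 706490, which allows up to 4.25 CPM. As with Fut4, this class without a UMI enters the mean, so the fitted sizes behind the Fut7 calls depend on the prior count. Neutrophil-like cells ranged from 0 to 5.51 CPM, the highest being the 2DG library. The 2DG sum rested on 8 UMIs. Without the 2FF library the CD4 call of Fut7 was lost (edgeR, adjusted p = 0.0557). Its closest profiles were those of Tnfaip8l1, Ermn and Gas2, with Pearson r of 0.79, 0.75 and 0.74.

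Fut10 was rarer still, with 158 UMIs in all. Regulatory T-like cells had 0.595, 1.94 and 4.70 CPM on 18 UMIs, with at least 1 UMI in every library. CD4 T-like cells had 0, 0.562 and 1.27 CPM on 10 UMIs, CD8 T-like cells 0, 0.0812 and 0.168 CPM on 5. The regulatory T cells lay above the CD8 T cells in all 6 libraries. B-like, NK-like and plasmacytoid dendritic-like cells had no Fut10 UMI. Fut10 passed as higher in regulatory T-like (edgeR, adjusted p = 4.21e-07), macrophage-like (adjusted p = 0.000568) and CD4 T-like cells (adjusted p = 0.0131). As with Fut4, the classes without a UMI enter the mean. The fitted sizes behind the Fut10 calls therefore depend on the prior count and are not given. The CD4 call was lost with DESeq2 (adjusted p = 0.205), without the 2FF library (edgeR, adjusted p = 0.139) and when classes of at least 5 cells were added (edgeR, adjusted p = 0.118). The macrophage call, on 38 UMIs, was lost with DESeq2 (adjusted p = 0.0727).

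Of the 10 classes tested, Fut11, like Gmds, was lowest in neutrophil-like cells. They had 1.14, 2.82 and 3.87 CPM, and no library of the other 9 classes tested went below 4.51 CPM. Macrophage-like cells, at 14.4, 15.0 and 17.1 CPM, were at the upper end. The Fut11 difference of neutrophil-like cells was -1.19 ± 0.17 (edgeR, adjusted p = 3.06e-08), and without the 2DG plus anti-PD-L1 library it was -0.98 and no longer past the limit on size. Pofut1, which prepares Notch for signalling, ranged from 4.64, 6.48 and 11.7 CPM in neutrophil-like to 17.6, 21.5 and 25.4 CPM in regulatory T-like cells without a call. Pofut2 ran the other way. It was highest in monocyte-like cells at 19.9, 25.6 and 30.6 CPM, macrophage-like cells at 18.7, 23.5 and 28.4 CPM and neutrophil-like cells at 14.1, 22.7 and 26.9 CPM, and lowest in B-like cells at 2.63, 8.15 and 13 CPM. Pofut2 passed as higher in monocyte-like (log2 difference 1.19 ± 0.10, edgeR adjusted p = 1.08e-14) and neutrophil-like cells (1.11 ± 0.14, edgeR adjusted p = 8.25e-10). The monocyte difference was 0.98 with RLE size factors or DESeq2 and 0.90 in UMIs per cell, and the neutrophil difference 0.9996 without the 2FF library and 0.90 with sums of at least 50 cells, all under the limit on size. In UMIs per cell the neutrophil difference of Pofut2 was -0.43. Pofut2 also passed as lower in plasmacytoid dendritic-like cells (-1.37 ± 0.48, edgeR adjusted p = 0.0346), on 6 UMIs, and this call was lost in 12 alternatives.

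**Figure D1:**
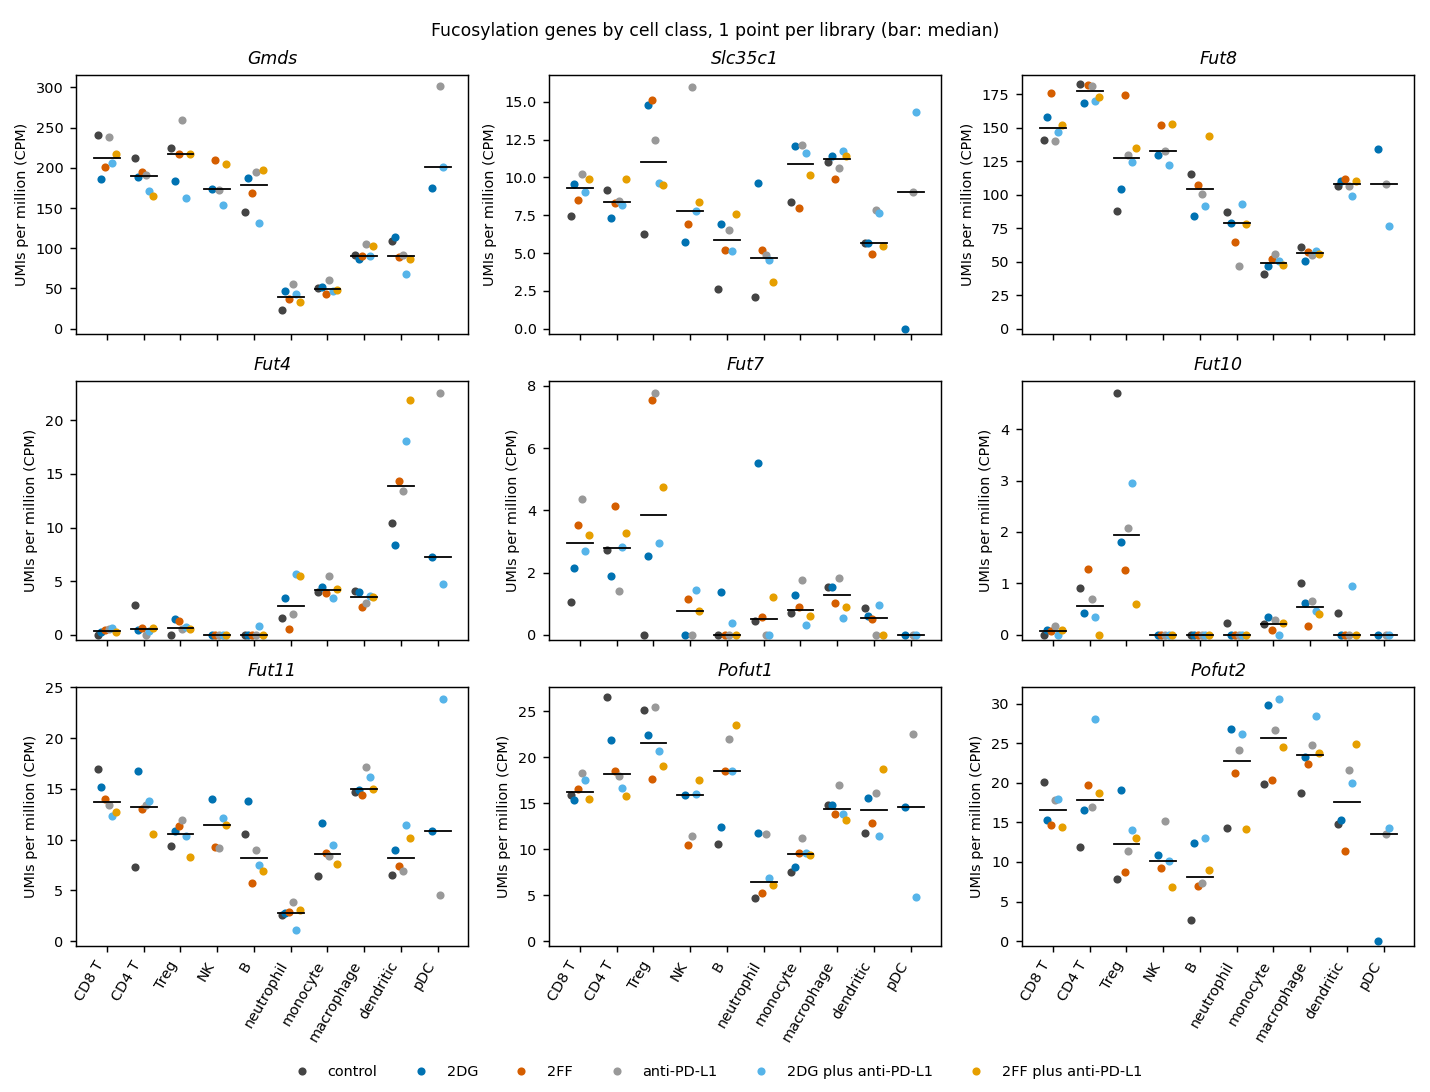
Levels of 9 genes in CPM (UMIs scaled to the total of the class, linear vertical axes from about 0) in 10 cell classes, with 1 point per library coloured by treatment and a bar at the median. On this scale Gmds forms 3 tiers, with lymphocytes above macrophages and dendritic cells and those above monocytes and neutrophils. Fut4 is highest in dendritic cells and Fut7 in T cells. The dendritic points for Gmds and Fut4 mix subsets whose ranges lie apart.

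Within the dendritic class, Gmds differed far more between subsets than it did between the classes above. Dendritic-like cells with UMIs of Ccr7 and Fscn1, the mark of mature migratory cells, were set beside those with Xcr1 or Clec9a, the mark of type 1 cells that take up dead cells and prime CD8 T cells. This comparison was chosen after the values were seen, so its differences are given as a description, without a test. Mature cells had 5.16, 6.68 and 12 CPM of Gmds and type 1 cells 148, 166 and 174 CPM. The ranges were far apart, and the mature cells were lower in 6 of 6 libraries. The fitted log2 difference was -4.32 ± 0.19 (SE, 6 pairs), and the ratio of the medians was 0.0402. Type 2 cells, with Cd209a, had 97.1, 184 and 255 CPM on 5 to 14 cells per library. Slc35c1 pointed the same way, with 0.860, 2.53 and 9.96 CPM in mature against 6.58, 8.53 and 11.6 CPM in type 1 cells. It was lower in 5 of 6 libraries, at -1.38 ± 0.46, and the ranges overlapped.

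In CPM, Fut4, Fut8 and Fut11 lay the other way. Mature cells had 12, 23.6 and 42.8 CPM of Fut4 against 2.91, 4.65 and 7.67 CPM in type 1 cells, higher in 6 of 6 libraries without overlap, with a fitted difference of 2.17 ± 0.35. The largest within-library ratio was in 2FF plus anti-PD-L1, with 42.8 against 3.47 CPM on 24 and 2 UMIs. Fut8 was also higher in mature cells in 6 of 6 libraries without overlap, at 135, 151 and 172 against 66.9, 81.7 and 94.1 CPM (1.04 ± 0.13). Fut11 was higher in 6 of 6 libraries with overlapping ranges (0.67 ± 0.31). Over all libraries, 493 mature cells held 730 UMIs of Fut8, 49 of Fut11 and 105 of Fut4. The 338 type 1 cells held 517, 43 and 32. On these counts Fut8 and Fut11 were not higher per mature cell, while Fut4 was. Pofut1 at 0.47 ± 0.25 and Pofut2 at -0.39 ± 0.26 were within 2 standard errors of 0. Genes of at least 200 kb had a median difference of 0.30 between the subsets, and all genes one of -0.03. Type 1 cells were deeper, with a median of 17968.5 UMIs against 9061 per mature cell, and their proliferation genes Mki67 and Top2a summed to 187 to 454 CPM against 32.1 to 56 CPM. Their monocyte markers summed to 155 to 562 CPM against 35.0 to 99.6 CPM, while T cell markers stayed at or below 35.7 CPM in both. The part of these differences in the result was not tested. Gmds stayed between -4.47 and -4.21 under every alternative run, while with the stricter gate Fut4 was at 1.80 and Fut8 at 0.91.

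Of the 23 other pathway genes measured in these subsets, 3 had a log2 difference of at least 1 and 9 of -1 or below, by size alone. Differences of that size were common in this contrast, in which 1611 of 9733 genes (16.6%) were at 1 or above and 1789 (18.4%) at -1 or below. Tsta3, the next enzyme after Gmds, did not share its pattern, with 21.4, 40.1 and 45.9 CPM in mature and 31.5, 44.6 and 47.2 CPM in type 1 cells. The fucosidase genes Fuca1 and Fuca2, whose products cleave fucose from glycans, did go with Gmds. Fuca1 was at 43.8, 49.3 and 63.6 against 135, 203 and 245 CPM, and Fuca2 at 0, 3.62 and 8.92 against 38.2, 53.0 and 55.3 CPM. The transporter-like gene Slc35c2 was at 3.29, 8.43 and 13.9 against 49.5, 66.6 and 76.7 CPM. Genes for selectin ligands did not share 1 direction. Selplg, Gcnt1 and St3gal4 were higher in mature cells in 6 of 6 libraries. Cd44 and St3gal6 were lower in 6 of 6 and Spn in 5 of 6. Selplg, the scaffold of the main P-selectin ligand, was at 362, 389 and 494 against 149, 155 and 240 CPM, and Gcnt1, which starts the branch that carries the ligand, at 3.98, 14.6 and 21.0 against 2.91, 4.0 and 6.94 CPM.

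**Figure D2:**
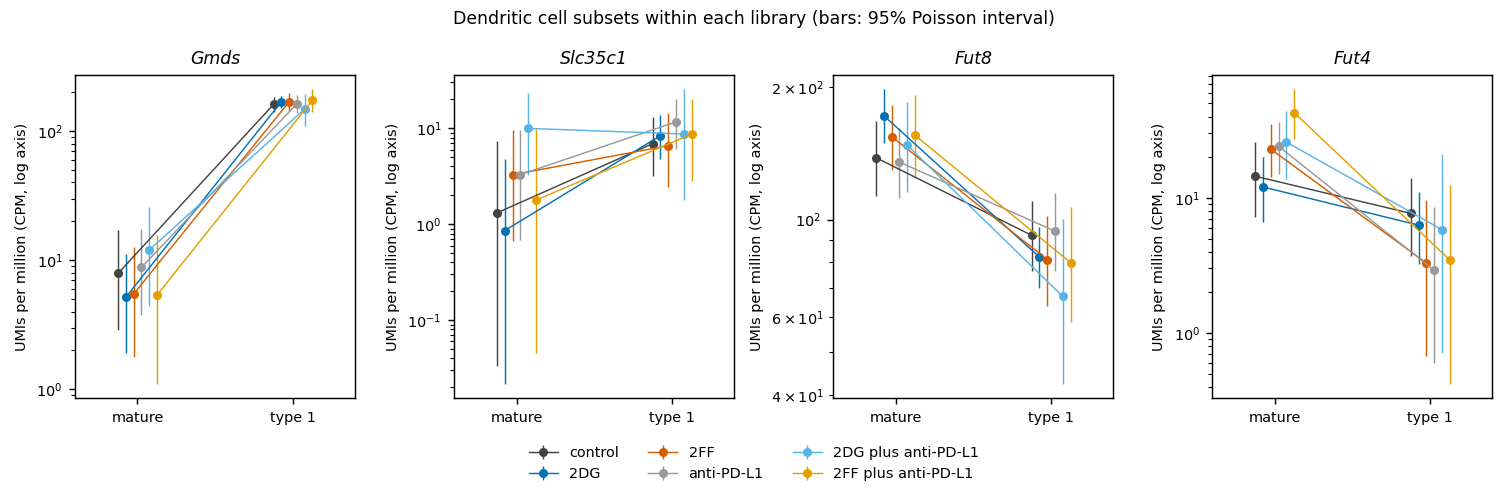
CPM (UMIs scaled to the total of the class, log axes) of Gmds, Slc35c1, Fut8 and Fut4 in mature and type 1 dendritic-like cells, with lines joining the subsets of a library and bars for the 95% Poisson interval of each sum. Gmds is lower in mature cells in all 6 libraries (5.16 to 12 against 148 to 174 CPM) and Fut4 and Fut8 are higher in all 6.

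Fut8 had its highest median in plasma-like cells, the antibody-secreting descendants of B cells. There were 71 such cells, 5 to 29 per library, so they were fitted only in an added analysis that accepted 5 cells per sum, and this comparison too was chosen after the values were seen. They had 549 CPM in control, 471 in 2DG, 507 in 2FF, 516 in anti-PD-L1, 403 in 2DG plus anti-PD-L1 and 340 in 2FF plus anti-PD-L1. B-like cells had 84.2, 104 and 144 CPM. Every plasma-like library exceeded every B-like library, and the fitted log2 difference was 2.68 ± 0.16 (SE). Genes of at least 200 kb had a median of -1.23 in the same contrast, and all genes one of -0.37. Gmds was higher by 1.12 ± 0.17 on the log2 scale in the fit. In CPM it was at 183, 246 and 465 against 132, 178 and 197, with a ratio of the medians of 1.38. The fit uses TMM factors and CPM does not, so these are on different scales. The ranges overlapped, and the highest value was the control library on 5 cells. In CPM, Pofut1 was lower in 6 of 6 libraries, at 0, 6.11 and 10.1 against 10.5, 18.5 and 23.5 CPM. It had 9 UMIs in the 71 plasma-like cells and 153 in 1324 B-like cells, so it was not lower per cell. Fut4 had 3 UMIs and Fut10 none. Of the plasma-like cells, 57.7% were marked as likely doublets, and their median depth was 19379 UMIs against 5134 in B-like cells. In the 30 cells not marked, Fut8 was at 549 CPM and Gmds at 234 CPM.

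**Figure D3:**
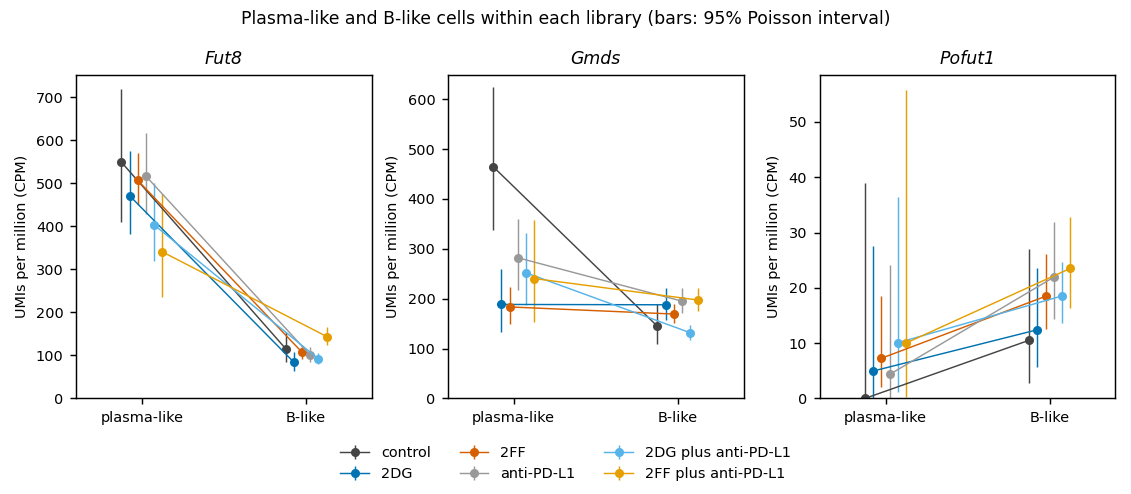
CPM (UMIs scaled to the total of the class, linear axes from 0) of Fut8, Gmds and Pofut1 in plasma-like and B-like cells, joined within a library, with 95% Poisson intervals. Fut8 lies at 340 to 549 CPM in plasma-like and 84.2 to 144 CPM in B-like cells, without overlap.

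The keratin-positive tumor cells numbered 53, with 2 to 15 per library. They were gated by at least 2 of Krt8, Krt18, Krt19, Krt7 and Epcam and by the absence of a Ptprc UMI. Keratin and Epcam genes were therefore present by the gate, Krt18 at 1190 CPM and Krt8 at 948 CPM over all of these cells. The 2 cells of the control library held 1852 UMIs together and none of the 10 genes. Pooled over libraries, Gmds was at 441 CPM (95% Poisson interval 401 to 484) and Fut8 at 293 CPM (260 to 328). Gmds in 2FF plus anti-PD-L1 was at 621 CPM (557 to 691), against 144 to 315 CPM in the other libraries with a UMI of it. Without doublets, pooled Gmds was at 262 CPM, so its level rested on few cells. Fut10 was at 13.9 CPM (7.59 to 23.3), on 14 UMIs of which 10 came from 2FF plus anti-PD-L1. The pooled value was above the highest library of any immune class tested, 4.70 CPM in regulatory T-like cells. Single libraries say less. In anti-PD-L1 and 2DG plus anti-PD-L1, 1 UMI alone gave 19.7 and 11.1 CPM, so any UMI placed them above 4.70 CPM. Control and 2FF had no Fut10 UMI. Fut10 was at 18.3 CPM (8.78 to 33.7) in 2FF plus anti-PD-L1 and 8.43 CPM (1.02 to 30.5) in 2DG. Pooled over libraries, Pofut2 was at 40.7 CPM (29.2 to 55.2), Fut11 at 16.9, Pofut1 at 14.9 and Slc35c1 at 5.95 CPM. Fut7 had no UMI, which allows up to 2.97 CPM, and Fut4 had 1. The intervals cover counting error only.

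Within CD8 T-like cells, those with a UMI of Havcr2, a receptor of exhausted cells, were set against those with Tcf7, a factor of stem-like cells, and no Havcr2. Fut7 was the gene that differed. Havcr2-positive cells had 1.72, 3.86 and 5.0 CPM on 158 UMIs and Tcf7-positive cells 0, 0.449 and 1.89 CPM on 4. It was higher in Havcr2-positive cells in 6 of 6 libraries, although the control library, with 1 and 0 UMIs, brought the ranges to overlap. The log2 difference was 2.40 ± 0.60 (edgeR, adjusted p = 0.00696). Over the alternatives the difference ran from 2.06 to 3.03, with adjusted p-values up to 0.0282. It was the only 1 of 7 members tested to pass, against 7.56% of all genes. Pofut2 was higher in 6 of 6 libraries without overlap, at 14.9, 17.7 and 27.5 against 5.75, 11.5 and 13.3 CPM, but at 0.53 ± 0.20 it did not pass (edgeR, adjusted p = 0.0596). Fut8 had 141, 155 and 177 against 125, 136 and 169 CPM (0.09 ± 0.08, edgeR adjusted p = 0.480) and Gmds 180, 207 and 277 against 167, 223 and 277 CPM (-0.14 ± 0.10, edgeR adjusted p = 0.349). Havcr2-positive cells were deeper, with a median of 7334 against 5899 UMIs, and carried more Mki67 and Top2a, 359 to 530 against 115 to 311 CPM. Whether these took part was not tested. Among 27 other pathway genes, Gcnt1 passed as higher (2.17 ± 0.33, edgeR adjusted p = 0.000123).

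**Figure D4:**
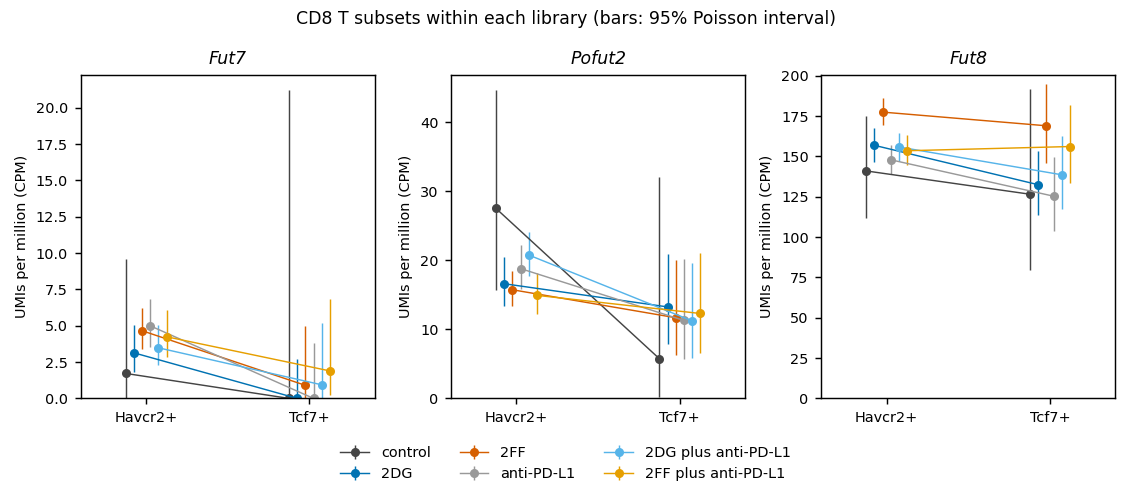
CPM (UMIs scaled to the total of the class, linear axes from 0) of Fut7, Pofut2 and Fut8 in Havcr2-positive and Tcf7-positive CD8 T-like cells, joined within a library, with 95% Poisson intervals. Fut7 is higher in Havcr2-positive cells in 6 of 6 libraries, whereas Fut8 ranges overlap.

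Macrophage-like cells with UMIs of both Spp1 and Gpnmb, markers of lipid-laden tumor macrophages, were compared with those that had neither. Only the control and 2FF libraries had 20 cells of both kinds, so the fit had 1 residual degree of freedom. None of the 6 members tested passed (edgeR), 0 had an unadjusted p under 0.05 there or with DESeq2, and 0.192% of all genes passed. When cells with either marker were counted, in all 6 libraries, again 0 of 8 passed. Of all 13172 genes in that wider fit, 72 passed as higher and 108 as lower, so a count of 0 does not set the members apart. Fut8 then had the lowest p, with a log2 difference of -0.33 ± 0.09 below the size asked of a call (edgeR, adjusted p = 0.0324). It was at 43.9 to 60.8 CPM with exactly 1 marker and 59.7 to 75.7 CPM with neither. The few cells with both markers had 40.0 to 89.2 CPM of Fut8. They were higher than cells with neither in 3 of 6 libraries and lower in 3.

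Of the 30 other genes listed for the pathway, 28 had enough UMIs and 22 passed in at least 1 class. They gave 45 higher and 29 lower calls in 280 pairs, 26.4%, again near the background. Of all gene-class pairs, 23.3% passed. Among 8 genes of GDP-fucose and GDP-mannose supply there were 5 higher calls and 1 lower in 80 pairs. Tsta3 passed as higher in dendritic-like cells (1.18 ± 0.09, edgeR adjusted p = 2.25e-16). Selectins and selectin ligand genes, the longest list, gave 27 higher and 17 lower calls in 100 pairs. The fucosylated receptors Notch1 and Notch2 gave 4 higher and 4 lower in 20 pairs. Differences between the lists were not tested. Among the pathway genes with the largest differences were Fut2, Chst2, St3gal6, Spn, Lfng, Notch1 and Gcnt1. Fut2, an enzyme of secretor-type fucose, was found mainly in neutrophil-like cells, at 6.81, 9.26 and 10.4 CPM, with 0.361 CPM as the highest library of any other class (edgeR, adjusted p = 5.56e-18). Chst2, a sulfotransferase of selectin ligands, was at 25.1, 34.5 and 39.0 CPM in regulatory, 21.0, 32.5 and 35.8 in CD4 and 10.6, 15.0 and 21.1 in CD8 T-like cells, and at a median of 3.05 CPM in NK-like cells, higher in all 4. St3gal6, a sialyltransferase of the same ligands, was at 202, 244 and 275 CPM in neutrophil-like cells (4.32 ± 0.13, edgeR adjusted p = 4.10e-34) and at 0, 1.97 and 5.91 CPM in regulatory T-like cells, which had the most Fut7 by median. Gcnt1 was also highest in neutrophil-like cells, at 61.0, 80.8 and 88.6 CPM. Spn, a sialomucin, was higher in all 4 T and NK classes and lowest in dendritic-like cells at 3.23, 4.86 and 8.39 CPM. Notch1, a substrate of Pofut1, had 83.5, 94.3 and 100 CPM in CD8 T-like cells and 3.90, 6.82 and 12.5 CPM in dendritic-like cells. Lfng, which extends O-fucose on Notch, was lower in B-like cells at 7.61, 12.8 and 19.5 CPM.

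Treatments were compared as ratios of single libraries per class, as the log2 of CPM + 5, a scale that understates changes of low genes, and without a test. Pairs needed 50 UMIs or more, counted over the compared libraries. Under 2FF, the fucosylation inhibitor, 3 of 39 pairs of gene and class were at least 0.5 from 0 relative to control, against 25.8% of all gene-class pairs. Of 2FF plus anti-PD-L1 relative to the antibody alone, 3 of 42 pairs were, against 10.2%. Of 2DG over control, 7 of 41 pairs were, against 21%. Of 2DG plus anti-PD-L1 relative to the antibody alone, 5 of 40 were, against 13.9%. Of anti-PD-L1 over control, 6 of 39 were, against 22.3%. In none of the 5 ratios were the members past this size more often than genes at large. Their median ratio lay between -0.10 and 0.20. No pair was past it in the same direction in both 2FF ratios, of 36 measured in both, or in both 2DG ratios, of 35.

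Fut8 in regulatory T-like cells gave the largest 2FF ratio over control. It was at 175 CPM (95% Poisson interval 147 to 206) in the 2FF and 87.8 CPM (66.3 to 114) in the control library, a log2 ratio of 0.95. The control value was the lowest of 6. The 2FF plus anti-PD-L1 library had 135 CPM and that of the antibody alone 130 CPM, a ratio of 0.05, and anti-PD-L1 over control was 0.54, or 0.38 with a mitochondrial limit of 10%. In CD8 T-like cells Fut8 was at 0.31 and 0.12 in both 2FF ratios. In CD4 T-like cells it was at 0.00 and -0.07, and in macrophage-like cells at -0.08 and 0.02. Neutrophil-like cells turned from -0.39, with 65.0 against 87.0 CPM in control, to 0.69, with 78.1 against 46.5 CPM in anti-PD-L1, and the intervals were apart in both. Monocyte-like cells turned from 0.30 to -0.20, again with the intervals apart. B-like cells were at -0.10 and 0.49, with the intervals apart in the latter. Dendritic-like cells were at 0.07 and 0.04, and NK-like cells at 0.20 in the ratio with the antibody. Fut4 in dendritic-like cells was at 0.33 and 0.55, on 28 and 29 UMIs in the latter with overlapping intervals.

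Of 24 pairs past the size in the 5 ratios, 12 were in neutrophil-like cells, where the control library held most of the cells. The share of all genes past it in neutrophil-like cells is not given here. The count of 12 therefore does not set the members apart from other genes in these cells. Gmds in these cells was lowest in control at 22.9 CPM and highest in anti-PD-L1 at 55.2 CPM. It was therefore at 0.57 for 2FF over control, 0.89 for 2DG and 1.11 for anti-PD-L1. Neutrophil ratios over control leaned upward for all genes, with class medians of 0.22, 0.20 and 0.10. In 2DG plus anti-PD-L1 relative to the antibody alone, Gmds lay below 0 in 10 of 10 classes. In the same ratio the class median of all genes was below 0 in 9 of 10 classes, between -0.09 and 0.08, and Pofut1 was below 0 in 6 of 6. The Gmds ratios ran from -0.66 in regulatory T-like cells, with 163 against 259 CPM, to -0.15 in CD4 T-like cells. The shared anti-PD-L1 library was the highest of its class in regulatory T-like, macrophage-like, monocyte-like, neutrophil-like and plasmacytoid dendritic-like cells. In the other classes another library was highest. Of the dendritic-like cells, 24 of 102 were type 1 in 2DG plus anti-PD-L1 and 57 of 177 in the antibody library. Their part in the dendritic ratio was not tested. In plasmacytoid dendritic-like cells the ratio of -0.58 became -0.16 without doublets. Against the same anti-PD-L1 library, 2FF plus anti-PD-L1 was below 0 in 7 of 9 classes with a median of -0.13, and 2DG over control in 4 of 8 with a median of -0.03. Slc35c1 was above 0 in 4 of 4 classes for 2DG over control, up to 1.05 in neutrophil-like cells on 14 and 36 UMIs.

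**Figure D5:**
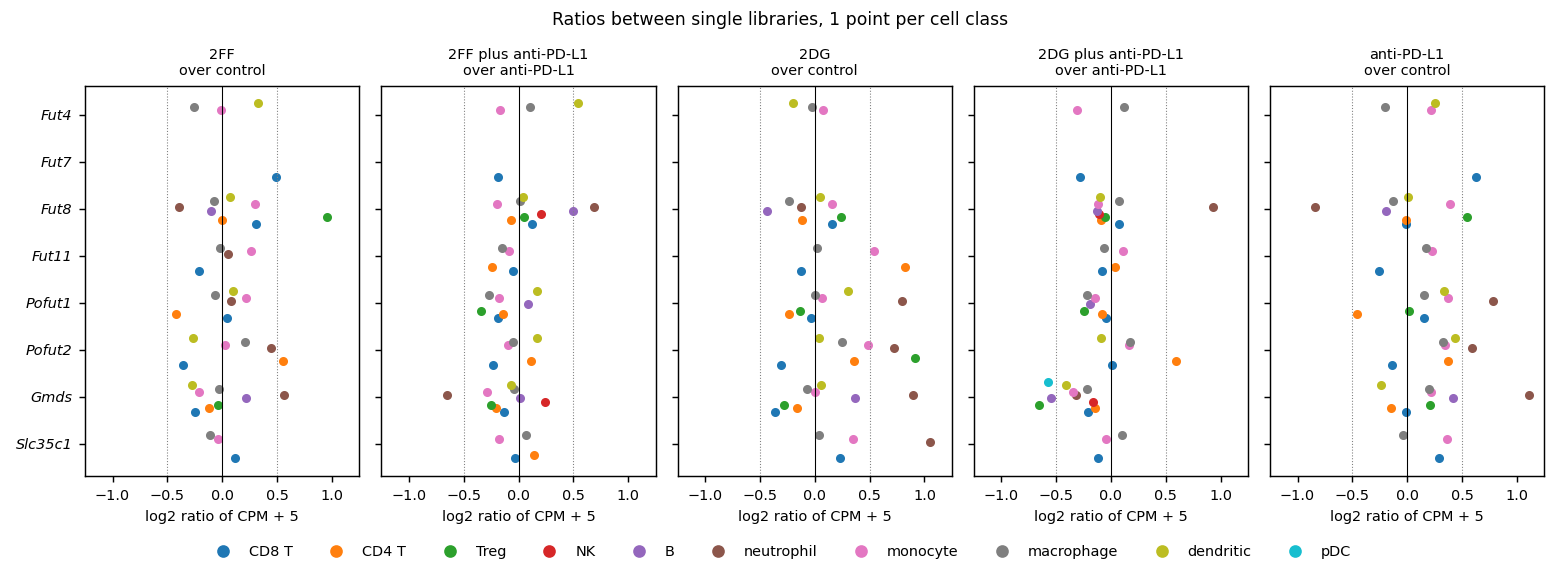
Log2 ratios of CPM + 5 between single libraries (horizontal axes, dotted lines at -0.5 and 0.5) for 8 genes in 5 comparisons, with 1 point per cell class. Most points lie within the dotted lines, the Gmds points of 2DG plus anti-PD-L1 relative to the antibody alone all lie left of 0, and neutrophil points spread most.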

How the data were processed

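Single cells of 6 mice, 1 library each, were measured with droplet 3′ RNA-seq. The authors deposited filtered matrices of UMI counts per gene and cell, with no normalization. The matrix headers and the paper's methods name Cell Ranger 7.0.0, the submitters' processing notes Cell Ranger 3.1.0 and mm10. Whether intronic reads were counted is not given in the sources used here. Totals of 61859753 to 73885214 UMIs per library set the precision of rare genes.

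Cells with under 250 genes or over 5% mitochondrial UMIs were removed. A cell was gated to a class when it held at least 3 of its markers (for tumor cells 2, and no Ptprc UMI) as the highest share of markers detected, by a lead of 0.15 over the next class. T cells were split by Cd8a or Cd8b1, Cd4 and Foxp3. Simulated-doublet scores marked 7.39% of cells, which were kept. Counts were summed per class and library, sums of under 20 cells left out, and genes with under 50 UMIs over all sums not tested. edgeR 4.0.16 (R 4.3.3, TMM, quasi-likelihood) was fitted across all genes, without the gate markers, with library as a block, and p-values were Benjamini-Hochberg adjusted over all genes tested. The edgeR class fit was tested on simulated data, in a contrast of dendritic-like cells with the other classes. Treatment ratios had no test. Poisson intervals (95%) and limits for a count of 0 (3 counts) cover counting error only. Alternatives were RLE factors, DESeq2 1.42.0, other filters, gates and scales, doublets removed and each library left out. Cells were handled with Python 3.11.15.

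All 10 genes were named, with up to 8 of 30 listed pathway genes, those with the largest class differences, and the 3 genes of most similar profile to Fut4, Fut7 and Fut8 by Pearson r of log2(CPM + 5). Some genes that this rule names are not reported here. The members and lists were chosen with earlier results of these data known. The dendritic, plasma and tumor comparisons, the smaller sums and the wider Spp1 or Gpnmb definition were added after the data were seen.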

Additional observations from a re-analysis of the deposited data

Results flagged for a closer look

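Gmds in neutrophil-like cells lay on opposite sides of 0 in both 2FF ratios. The log2 ratio of 2FF over control was 0.57, from 36.3 and 22.9 CPM, with the Poisson intervals apart. That of 2FF plus anti-PD-L1 relative to the antibody alone was -0.66, from 33.2 and 55.2 CPM. It rested on 54 and 57 UMIs, and the intervals overlapped. The class medians of all genes were 0.22 and -0.01 in these ratios. The difference between these ratios was not tested, as each side is 1 library. The control sum came from 3259 cells and the others from 270 to 486.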

How the results depend on the processing

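The count of gene and class pairs past the call was 18 and stayed between 17 and 25 over the alternatives with all libraries, and between 14 and 17 when each library was left out. The share of all gene-class pairs that passed in each alternative is not given here. Each library is 1 mouse, and without the library as a replicate block the count was 17. Of the tested calls under each alternative, 271 kept direction and threshold, 27 fell short of it and 1 reversed, Pofut2 in neutrophil-like cells at -0.43 in UMIs per cell. The CD8 count stayed at 1, also without each library in turn (1 to 1), and the macrophage count at 0. For the macrophages the stricter gate and the fits without control or without 2FF could not be run, since too few libraries remained. The cause of the changes was not tested. The count of 3 for 2FF over control became 6 with 1 CPM added, 6 with at least 20 UMIs, 6 with the stricter gate, 5 with a mitochondrial limit of 10% and 5 without doublets. The count of 3 for 2FF plus anti-PD-L1 relative to the antibody alone became 7 with at least 20 UMIs. The pairs measured and the share of all gene-class pairs under these alternatives are not given here. The comparison of the treatment ratios with genes at large therefore holds for the main setting only. Single treatment ratios were the same in 149 cases and moved in 16. RLE size factors shifted the median of all genes by -0.20 in monocyte-like to 0.19 in plasmacytoid dendritic-like cells, and UMIs per cell by -1.51 in neutrophil-like to 0.83 in dendritic-like cells. Depth limits Fut7, Fut10 and the plasmacytoid dendritic-like cells most.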
